A study of Mus musculus with 20 samples.

Results

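The cytosolic ribosomal protein genes were taken by name from the deposited expression table as every row whose symbol begins with Rpl or Rps followed by a digit, together with Rpsa, without rows named -ps, S6 kinase rows (Rps6k) and like-genes such as Rpl22l1. The rule found 79 of 17211 genes, of which 44 have large subunit names and 35 small subunit names. Among them, 74 are ribosomal proteins proper (43 large and 31 small), 4 are retrogene copies (Rpl37rt, Rps27rt, Rps3a2 and Rps3a3), and Rps19bp1 is a binding partner of a ribosomal protein and not a ribosomal protein itself. Left out by name were 55 rows named -ps, 10 Rps6k rows and 5 like-genes. The stalk proteins Rplp0, Rplp1 and Rplp2 and fusion genes such as Fau carry other names and are described as neighbours of the set.

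RNA was sequenced from the brain of 10 C57BL/6 and 10 *Winnie* mice, aged 14 weeks, with 5 samples labelled Female and 5 labelled Male in each genotype. *Winnie* mice carry a missense mutation of Muc2, the gene of the main secreted intestinal mucin, and develop spontaneous chronic colitis, while the C57BL/6 mice are littermates from the same colony without colitis. The study's methods give fewer mice per genotype for RNA than the labels list, and all labelled samples were used here. No mouse received a treatment in the labels. The mutation is present in every tissue from birth, so an effect of the genotype and an effect of the inflamed gut cannot be told apart, and brain tissue mixes many cell types.

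Each ribosome is built from a large subunit, which joins amino acids, and a small subunit, which reads the mRNA, and each ribosomal protein is normally present in a single copy per ribosome. Their mRNAs are short and start with a stretch of pyrimidines, the 5′ terminal oligopyrimidine tract, through which the kinase mTOR controls their translation together. The mouse genome also holds many processed copies of these mRNAs, most of which are pseudogenes, so that a short read from a ribosomal protein mRNA can match several places.

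The libraries held between 16540303 and 23923769 reads over the listed genes, and the members together took 0.279% to 0.348% of them, which is 49817 to 80407 reads per brain. Levels are given in CPM, the reads of a gene scaled to the same total of reads in every library. Xist and Ddx3y went against the labelled sex in 9 of 10 C57BL/6 samples (all but replicate 4) and in 0 of 10 *Winnie* samples, so the labelled sexes are used only as labels. The labels carry numbers after the letter S that do not mix the genotypes. What these numbers stand for is not given, and any order they follow cannot be told apart from genotype. In bulk RNA, fewer cells of a type and less RNA per cell cannot be told apart either.

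Promoter sequences from RefSeq (GRCm38.p6) matched 58 of the 79 members. The sequence CTTTCC, a short pyrimidine motif, stood on the sense strand within 50 bases of the start in 32.4% of 68 member promoters and in 4.24% of 14922 promoters of the other genes in the table. A run of at least 8 pyrimidines within the bases from 5 before to 15 after the start was found in 29.4% and 6.74% of these promoters, and such runs can overlap CTTTCC. The sequence CCGGAAG, which matches the core bound by ETS family factors, was found on either strand of the 300 bases around the start in 35.3% of member promoters and 14.7% of the others. Each of these 3 features was thus found in a minority of the member promoters. The windows below are examples of members with CTTTCC near the start, and the last pair shows a gene and its retrogene copy. The capitals mark CTTTCC, and each window holds 30 bases, 5′ to 3′ on the strand of the gene.
Rpl38 (chr11:114668568-114668597, plus strand): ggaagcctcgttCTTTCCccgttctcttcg
Rpl28 (chr7:4792955-4792984, plus strand): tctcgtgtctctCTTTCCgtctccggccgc
Rpl15 (chr14:18270965-18270994, minus strand): aaagccttcttcCTTTCCtctggcggcagc
Rpl35 (chr2:39005119-39005148, minus strand): gtcggccccgccCTTTCCtctttctctcga
Rps10 (chr17:27635223-27635252, minus strand): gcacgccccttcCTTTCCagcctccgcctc
Rps27 (chr3:90213630-90213659, minus strand): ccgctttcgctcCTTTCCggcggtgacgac
Rps27rt (chr9:114982722-114982751, minus strand): acttatcccttgCTTTCCggcggtgacgac
In Rpl38 and Rps27rt the motif began at the annotated first transcribed base. Rps27 and its copy share the motif and the bases after it, while the bases before it belong to different loci.

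Rps27, which has 4 exons on chromosome 3, and Rps27rt, a single exon on chromosome 9 annotated as protein coding, aligned over 341 bases with 0 mismatches, and 98.4% of the 100-base windows of the Rps27 transcript were also found in Rps27rt. A read of 100 bases that lies inside these windows cannot be assigned to either gene. In the deposited table Rps27 stood at 1.72 ± 0.387 CPM in C57BL/6 and 1.67 ± 0.452 CPM in *Winnie* (SD, n = 10), and Rps27rt at 80.0 ± 18.9 and 76.9 ± 16.2 CPM. Neither row passed the test between genotypes (limma FDR 0.913 and 0.922). Rpl37 and its copy Rpl37rt aligned over 344 bases with 1 mismatch, G286A, counted from the first base of the Rpl37 transcript, which is shown in capitals because only reads over this base tell the aligned parts apart.
Rpl37 (transcript bases 272 to 301): cgtgagggaacaacGccgaaacccaagagg
Rpl37rt (transcript bases 318 to 347): cgtgagggaacaacAccgaaacccaagagg
Rpl37 was measured at 2.78 ± 0.547 CPM in C57BL/6 and 2.64 ± 0.531 CPM in *Winnie*. Its copy, annotated as a transcribed processed pseudogene on chromosome 5, stood at 83.8 ± 13.6 and 69.8 ± 7.12 CPM. Rps3a1 differed from Rps3a2 at 4 of 792 aligned bases and from Rps3a3 at 9 of 795.

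Across the members, the mean level per length ranged from 0.828 CPM per kb of transcript for Rpl24 to 350 CPM per kb for Rps15, a ratio of 422, although the proteins are needed in equal numbers. Of all 100-base windows of the member transcripts, 36.5% were found in at least 1 other annotated gene. Shared windows were present in 73 members and absent in 6, among them Rpl22, Rpl32, Rps3, Rps21 and Rps19bp1. The median level was 81.2 CPM per kb in the 12 members with under 10% of windows shared, 26.4 CPM per kb in the 33 members with 10 to 50% shared, and 10.8 CPM per kb in the 34 members with over 50% shared. The rank correlation between the share and the level over the 79 members was −0.487 as a description, and the points share their libraries and their scaling to the same total.

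**Figure D1:**
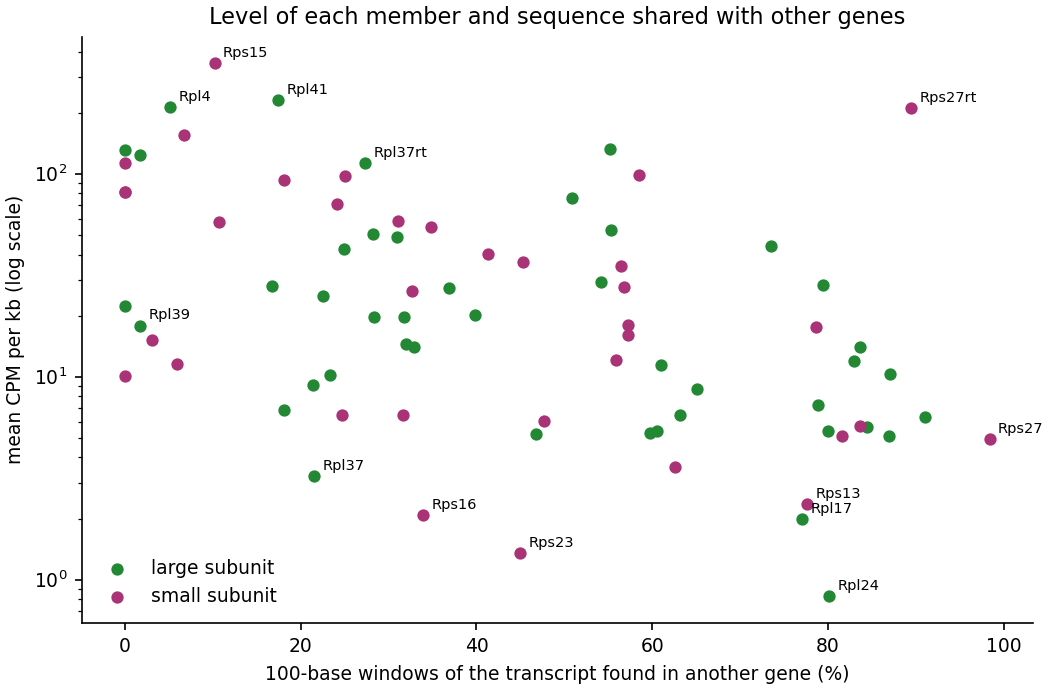
Each point is a member, with the share of its 100-base transcript windows that also occur in another annotated gene on the horizontal axis (%) and its mean CPM per kb over 20 brains on a log scale on the vertical axis. Rps27 (98.4% shared) sits low and its copy Rps27rt high, and the highest member, Rps15, has 10.2% of its windows shared.

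At the upper end of the large subunit were Rpl41 (231 CPM per kb), the shortest ribosomal protein, Rpl4 (213), a protein of the wall of the exit tunnel, and Rpl13a (132), which is also known outside the ribosome in translational silencing. In the small subunit Rps15 (350) and Rps27rt (210) were highest per kb. At the lower end were Rpl24 (0.828), Rpl17 (1.99) and Rpl37 (3.24) in the large subunit and Rps23 (1.35), a protein of the decoding centre, Rps16 (2.09) and Rps13 (2.36) in the small subunit. These low rows rest on few reads, with 5 to 25 reads per brain for Rpl24 and 16 to 34 for Rps23. Of their windows, from 21.5% (Rpl37) to 80.1% (Rpl24) were shared with another gene.

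Rows named -ps, which the naming rule leaves out, held 27.1% of the CPM of members and -ps rows together. They belonged to 38 members, and in 19 of these the -ps rows summed above the gene itself. Rps6, the small subunit protein that S6 kinases phosphorylate, had a mean of 5.02 CPM while Rps6-ps4 had 98.7 CPM. Rps23 had 1.26 CPM against 56.9 CPM for Rps23-ps1, and Rps16 had 2.31 CPM against 60.9 CPM for Rps16-ps2. Rpl19, a protein of the large subunit, stood at 8.55 CPM beside 77.1 CPM for Rpl19-ps11. In each of these pairs the row named for the pseudogene was the larger.

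The comparison of *Winnie* with C57BL/6 asked whether the levels of these genes differ in the brain of mice with colitis. Only 1 of the 79 members (1.27%), Rpl39, passed an FDR under 0.05 in limma, where 2.52% of all 17211 genes did. Over all genes, 1.01% were called lower in *Winnie*, the direction of Rpl39. The share of members called rests on 1 gene and lay near the background. The members leaned one way all the same. The log2 fold change was below 0 in 66 of 79 members (83.5%), against 49.0% of all genes tested. Its median was −0.112 for the large subunit and −0.114 for the small subunit, beside 0.00221 over all genes tested. An unadjusted p under 0.05 with a lower level in *Winnie* was found for 23 members (29.1%), against 8.08% of all genes, and 0 members had such a p with a higher level, against 9.53% of all genes. Not one member had groups that did not overlap, and over all genes 0.00581% did so in this direction. At the threshold named in the methods, an FDR under 0.001 with a 1.5-fold change, 0 genes were called by limma and by edgeR on the recovered reads and 12 by DESeq2 (0.0865%), with 0 members by any of them. On the recovered reads, edgeR called 3 members, Rpl39 and Rps28 among them, and DESeq2 called 10, each of them lower in *Winnie*, where 1.29% of 17211 genes and 3.42% of the 13874 genes with an adjusted p in DESeq2 were called lower.

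**Figure D2:**
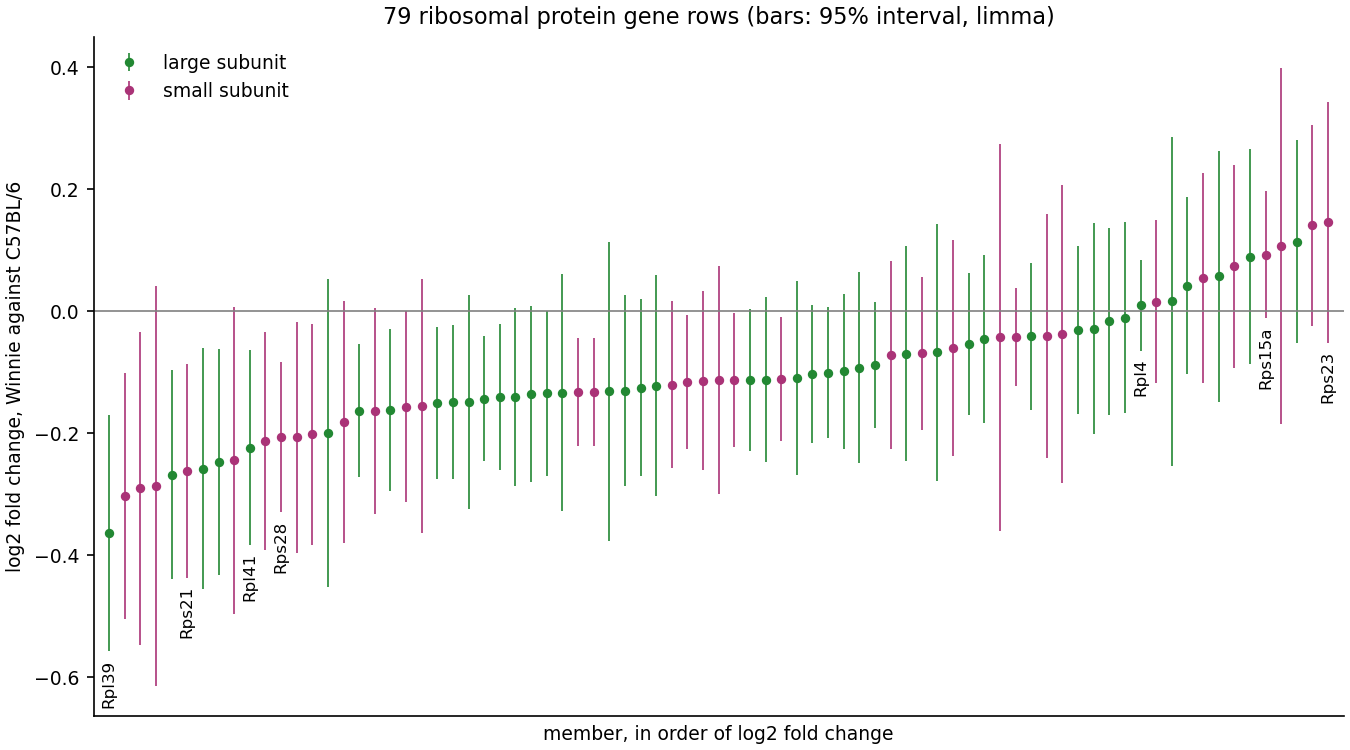
The log2 fold change of each of the 79 members (vertical axis, *Winnie* against C57BL/6, on log2(CPM + 0.5)) in rank order, with some of the members named, 95% intervals from limma over 10 and 10 brains and colours for the subunits. The values run from −0.36 (Rpl39) to 0.15 (Rps23), 66 of them lie below 0, and large and small subunit genes are mixed along the order.

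Rpl39, on the X chromosome, encodes a small protein at the exit of the tunnel through which the new chain leaves the ribosome. In C57BL/6 its lowest, median and highest values were 10.4, 12.4 and 15.4 CPM, and in *Winnie* they were 6.80, 8.83 and 15.2 CPM. Of the *Winnie* brains, 9 of 10 lay below the C57BL/6 median, while replicate 6, at 15.2 CPM, lay near the highest C57BL/6 value, so the groups overlapped. Rpl39 fell by 0.36 on the log2 scale (SE 0.094, limma FDR 0.0374), from 12.3 ± 1.47 to 9.58 ± 2.27 CPM (SD, n = 10), and a two-sided permutation test on CPM gave p = 0.00574. Of the Rpl39 windows, 1.75% were shared with another gene. Only exact matches count as shared, so a low share does not show that a gene lacks similar copies. Rps3a1, for example, shared 14.6% of its windows with its copy Rps3a3, although their aligned bases were 98.87% identical. The call did not hold in 12 of 20 fits without 1 brain, in which the FDR ranged from 0.00439 to 0.0722 over all 20. Adding the Rpl39-ps row (7.43 CPM) to the gene, an alternative chosen after seeing the data, gave a log2 fold change of −0.25 with an FDR of 0.111.

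Other large subunit members had values in the same direction without passing the test. Rpl41, at 107, 149 and 183 CPM (lowest, median, highest) in C57BL/6 and 104, 121 and 145 CPM in *Winnie*, had a log2 fold change of −0.22 (SE 0.077, FDR 0.117). All 10 *Winnie* brains lay below the C57BL/6 median, yet the ranges overlapped. Rpl37a, a zinc-binding protein of the large subunit, stood at 5.55 ± 0.430 and 4.57 ± 0.824 CPM (log2 fold change −0.27, FDR 0.0759), and Rpl35, which lies beside the tunnel exit, at 12.5 ± 2.44 and 10.2 ± 1.40 CPM (−0.26, FDR 0.143). For the copy Rpl37rt the log2 fold change was −0.25 (FDR 0.139), with 10 of 10 *Winnie* brains below the C57BL/6 median, whereas for Rpl37 itself it was −0.07 (FDR 0.789). Rpl32, which has no shared window, was measured at 71.2 ± 7.27 and 63.4 ± 4.70 CPM (−0.16, FDR 0.0905).

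None of the large subunit members with further roles given here passed the test. Rpl5 and Rpl11, which carry the 5S rRNA and bind Mdm2, had log2 fold changes of −0.05 (FDR 0.780) and −0.13 (FDR 0.388). Rpl22, an RNA-binding protein at the surface of the subunit, stood at 47.0 ± 3.76 and 44.2 ± 3.77 CPM (FDR 0.378), and Rpl10, one of the last proteins to join the subunit, at 5.05 ± 0.791 and 4.6 ± 0.717 CPM (FDR 0.50). Rpl4 was at 327 ± 21.9 CPM in C57BL/6 and 328 ± 10.6 CPM in *Winnie*, a log2 fold change of 0.01 with a 95% interval from −0.064 to 0.084. Rpl13a had a value of −0.14 (FDR 0.192).

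In the small subunit no member passed the test. Rps28, named here after its values were seen, came closest, with 13.1, 17.1 and 20.03 CPM in C57BL/6 and 12.4, 14.4 and 15.96 CPM in *Winnie*. Every *Winnie* brain lay below the C57BL/6 median, and the lowest C57BL/6 brain lay inside the *Winnie* range. Its log2 fold change was −0.21 (SE 0.060, FDR 0.0578). Rps21, whose transcript has no shared window, was at 25.9, 34.7 and 46.4 CPM and 24.5, 29.2 and 35.02 CPM (−0.26, SE 0.085, FDR 0.0931). In Rps21 9 of 10 *Winnie* brains lay below the C57BL/6 median while the ranges overlapped.

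Among the abundant small subunit members, Rps15 had 183 ± 12.1 and 167 ± 12.6 CPM (log2 fold change −0.13, FDR 0.0897). Rps3, which lines the entry of the mRNA channel and also acts in DNA repair, stood at 161 ± 16.4 and 149 ± 9.41 CPM (−0.11, FDR 0.237). Rpsa, also known as the laminin receptor precursor, was nearly level at 115 ± 8.15 and 111 ± 4.31 CPM (−0.04, FDR 0.617). The X-linked Rps4x had a log2 fold change of −0.11 (FDR 0.271), and Rps19, a gene mutated in Diamond-Blackfan anaemia, one of −0.18 (FDR 0.332). Rps27a, which is made as a fusion with ubiquitin, was at 3.08 ± 0.431 and 2.62 ± 0.524 CPM (−0.21, FDR 0.235). Rps3a3, one of the copies, had −0.29 (FDR 0.216) beside −0.20 (FDR 0.225) for the gene Rps3a1.

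The 13 members with a log2 fold change above 0 included Rps6, at 4.87 ± 0.587 and 5.16 ± 0.749 CPM (0.07, FDR 0.696), Rpl17 (0.06, FDR 0.823) and Rps23 (0.15, FDR 0.455). Rps15a, named after its values were seen, had the smallest p of the members above 0, at 76.0 ± 5.65 and 81.2 ± 7.87 CPM (0.09, FDR 0.355), and 8 of 10 *Winnie* brains lay above the C57BL/6 median. For Rps23 the direction belongs to the row and not to the family of rows, since Rps23-ps1 was lower in *Winnie* (61.8 ± 5.73 against 52.0 ± 3.80 CPM, log2 fold change −0.24, FDR 0.0112). Summing both rows, an alternative chosen after seeing the data, gave −0.23 with an FDR of 0.0140.

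**Figure D3:**
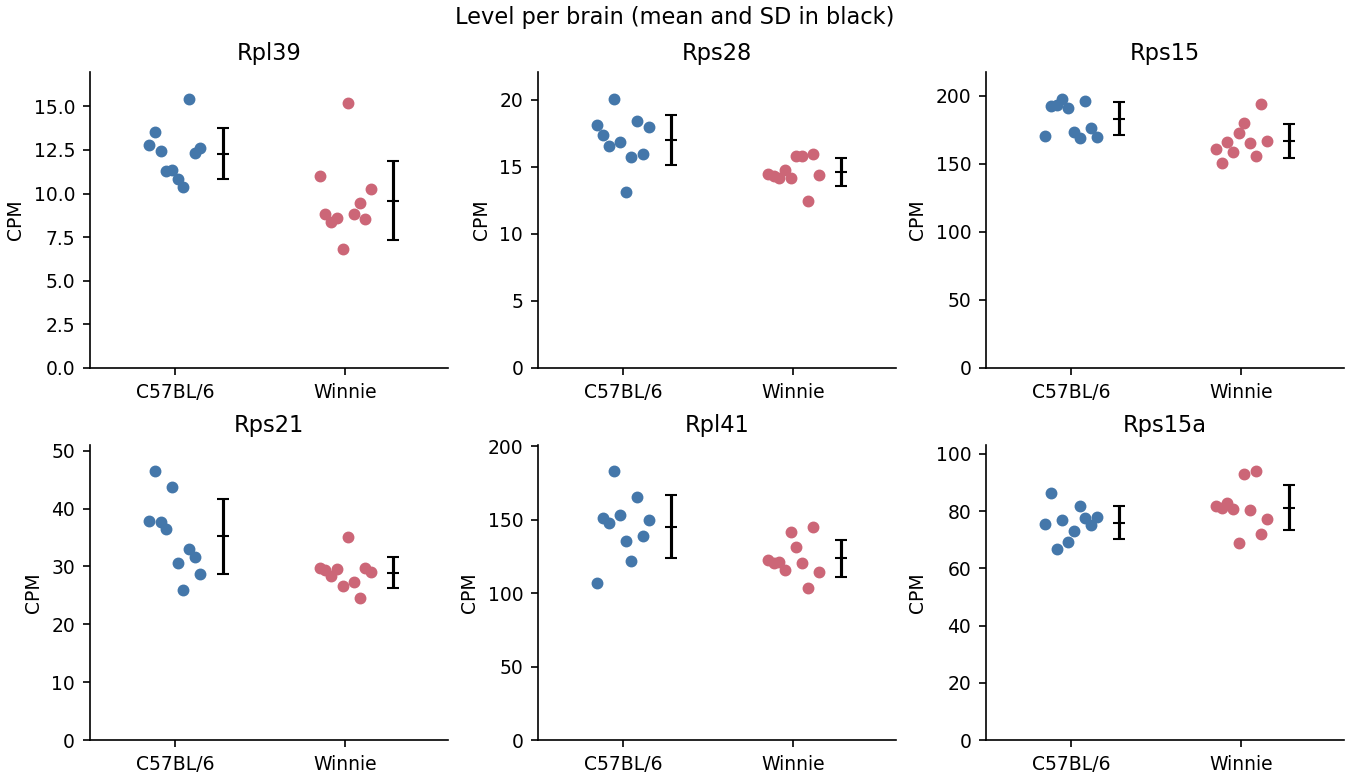
CPM per brain (vertical axes from 0) for 6 members in C57BL/6 (blue) and *Winnie* (red), with the mean and SD of 10 brains in black. The ranges overlap in all 6, Rpl39 has 1 *Winnie* brain at 15.2 CPM above the rest of its group, and Rps15a has the higher mean in *Winnie*.

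The summed level of the 44 large subunit members was 1616 ± 112 CPM in C57BL/6 and 1507 ± 67.2 CPM in *Winnie*, and that of the 35 small subunit members was 1572 ± 125 and 1475 ± 59.8 CPM. The means were lower in *Winnie*, with changes of −6.74% and −6.19%. The total of the members ran from 2790 to 3483 CPM in C57BL/6 and from 2806 to 3118 CPM in *Winnie*, with all 10 *Winnie* brains below the C57BL/6 median of 3233 CPM and 7 of the C57BL/6 brains above the highest *Winnie* brain. The other 3 C57BL/6 brains, at 2790, 2873 and 3018 CPM, lay within or below the *Winnie* range, so the groups overlapped. No test was made on these sums.

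The large to small subunit ratio of summed CPM was 1.03 ± 0.0318 in C57BL/6 (0.959 to 1.07) and 1.02 ± 0.0322 in *Winnie* (0.960 to 1.07), a difference of −0.00687 that is smaller than the spread between brains. The sign of this difference turned to 0.00120 when the retrogene copies and Rps19bp1 were left out.

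**Figure D4:**
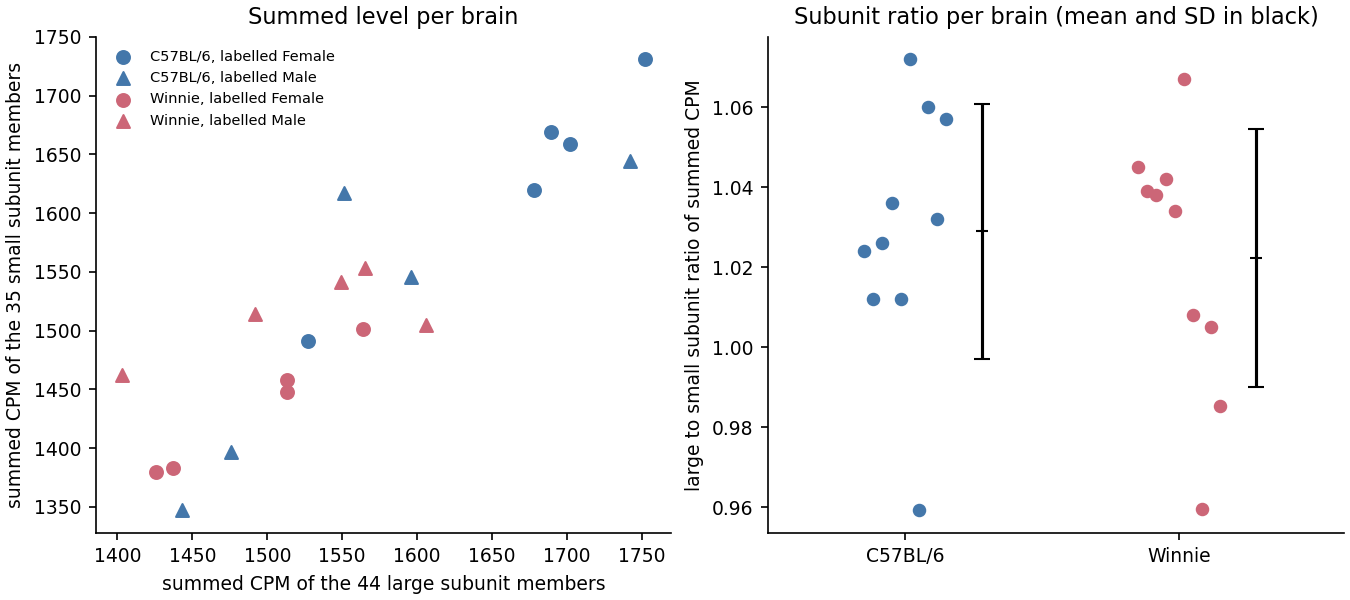
Left, the summed CPM of the small subunit members against that of the large subunit members, 1 point per brain, with colour for genotype and shape for labelled sex. Right, the large to small subunit ratio per brain with mean and SD (n = 10), where both groups span about the same range, 0.959 to 1.07 in C57BL/6 and 0.960 to 1.07 in *Winnie*.

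The labelled sexes gave different sizes. Among samples labelled Female the total was 3304 ± 173 CPM in C57BL/6 and 2925 ± 110 CPM in *Winnie* (SD, n = 5), and among samples labelled Male it was 3072 ± 241 and 3038 ± 106 CPM. The median log2 fold change was −0.156 for the large and −0.211 for the small subunit members in the samples labelled Female, and −0.0459 and −0.0196 in those labelled Male. Below 0 were 74 and 49 of the 79 members, beside 51.3% and 47.1% of all genes. An unadjusted p under 0.05 with a lower level was found for 38 members in the samples labelled Female, against 6.71% of all genes, and for 1 member in those labelled Male, against 4.74%. In the samples labelled Female 2 members, Rps21 and Rpl37rt, passed an FDR under 0.05, beside 0.0349% of all genes, and in those labelled Male 0 did, beside 0.354% (limma; 3 had an unadjusted p under 0.05, and no other tool was run on this subset). A test of the difference itself, the interaction of genotype and labelled sex, called 0 of 79 members and 12 of all genes (0.0697%). Xist and Ddx3y contradict the label in 4 of the 5 C57BL/6 samples labelled Female and in all 5 labelled Male. These subsets thus set samples of mostly different Xist level against each other. The interaction used the same labels, so it cannot show whether the genotype difference depends on sex. With Ddx3y as a covariate in the fit over all 20 brains, Rpl39, Rps21 and Rpl32 were called, all lower in *Winnie* (1.12% of all genes), and 66 members were below 0 (49.6% of all genes).

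The members are short, with a median transcript length of 833 bases (345 to 5179) against 3057 bases for the other protein-coding genes of the table, and fold changes in these data moved with transcript length in all genes. In protein-coding genes that are not members, the median log2 fold change was −0.101 in 144 genes of up to 600 bases, −0.0711 in 619 genes of 600 to 1000 bases, −0.0105 in 3373 genes of 2000 to 3000 bases and 0.0539 in 2875 genes of over 5000 bases. In the same classes the members had medians of −0.134 (18 members), −0.121 (36 members) and, for 3 members of 2000 to 3000 bases, −0.0880. Short genes outside the set thus also had medians below 0, and the medians of the members lay lower still in these classes. An unadjusted p under 0.05 with a lower level (limma) was also frequent in short genes outside the set. It was found for 29.9% of them up to 600 bases (members 38.9%) and 23.6% from 600 to 1000 bases (members 33.3%). From 1000 to 1500 bases it was 16.7%, beside 14.3% of the members. After a correction of each sample for transcript length and GC content, chosen after seeing the data, 59 of 79 members were below 0 (50.3% of all genes), the median was −0.0716 for the large and −0.0597 for the small subunit beside −0.000611 over all genes, and 13 members had an unadjusted p under 0.05 with a lower level (8.09% of all genes) and 3 with a higher one. Rpl39 was still called, with a log2 fold change of −0.31 (FDR 0.0492). Why fold changes moved with length was not tested.

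**Figure D5:**
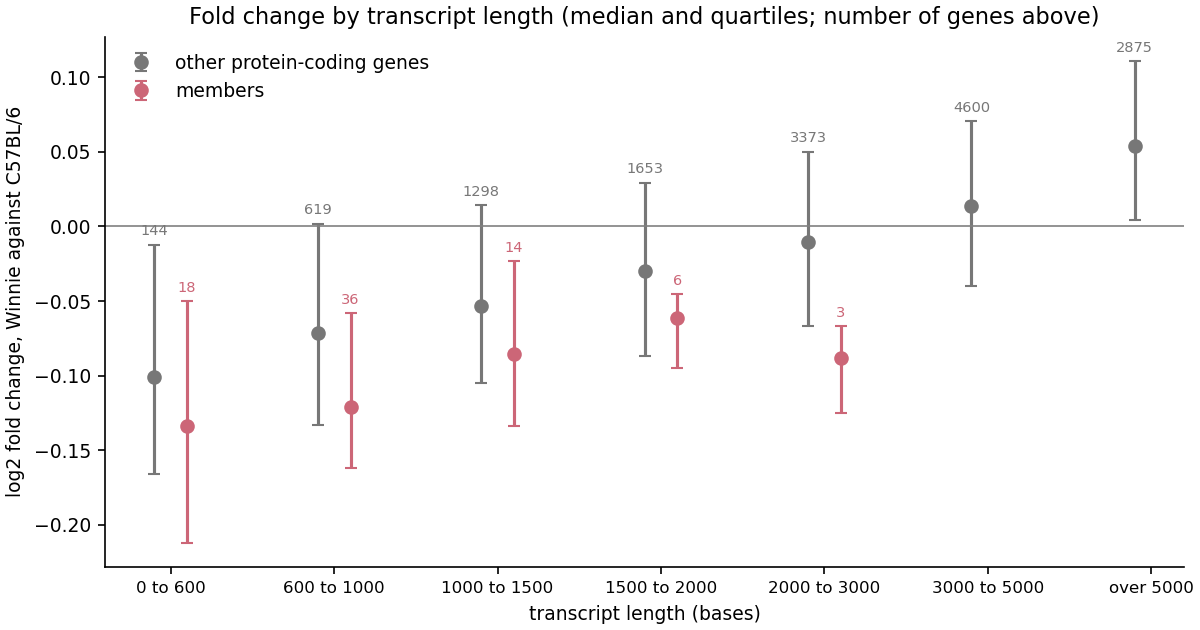
Median log2 fold change with quartiles (vertical axis, *Winnie* against C57BL/6) in classes of transcript length (horizontal axis, bases) for members (red) and other protein-coding genes (grey), with the number of genes above each bar and classes of under 3 members left out. The medians of the other genes climb from −0.101 to 0.0539 with length, and each of the 5 medians of members lies below that of the other genes.

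The levels of the members were positively correlated from brain to brain, and those of nuclear genes of oxidative phosphorylation were so to a like degree. With the mean of each genotype taken out, the median correlation over 3081 pairs of members across 20 brains was 0.220, and 0.381 over the 741 pairs with a mean of at least 20 CPM, beside 0.0529 for all pairs of genes at that level. Over 3741 pairs of nuclear genes of oxidative phosphorylation the median was 0.270, and between members and these genes it was 0.230. Pairs within the large subunit (0.236), within the small subunit (0.214) and between the subunits (0.214) differed little in these medians. All of these points share the same 20 libraries and their scaling, and transcript length is shared too. Rpl22 (0.888), Rpl13a (0.859) and Rpl32 (0.846) followed the mean of the other members most closely. Rpl29 (−0.174), Rpl24 (−0.159) and Rps13 (−0.135) followed it least, and Rpl24 and Rps13 are among the rows with the fewest reads.

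Among 10069 genes that are not members and have a mean of at least 10 CPM, the pattern most like the mean of the members over the 20 brains was that of Ndufb9, a subunit of respiratory complex I (Pearson r = 0.910). It was followed by Eif6 (0.889), which keeps the large subunit from joining too early, Dgcr6 (0.885), Rps16-ps2 (0.865), Gm15500 (0.865), Dnajc7 (0.862), the arginine methyltransferase Prmt1 (0.857) and Sdhb (0.854), a subunit of respiratory complex II. Not one of these 8 passed an FDR under 0.05. Rps16-ps2 and Gm15500 carry sequence of members, holding 33.9% of the Rps16 windows and 47.2% of the Rpl5 windows.

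The stalk and fusion genes and the like-genes had values in the same direction. Of 5 stalk and fusion genes, all were below 0 with a median of −0.184, and none was called (limma; 3 had an unadjusted p under 0.05). Rplp0, the base of the stalk, was at 97.9 ± 6.61 and 89.9 ± 6.79 CPM (log2 fold change −0.12, FDR 0.137), and its partner Rplp2 at 14.2 ± 1.67 and 11.9 ± 2.30 CPM (−0.26, FDR 0.124). Rplp1 was high and variable, at 246 ± 53.7 and 217 ± 50.1 CPM (−0.18, FDR 0.547), and Fau stood at 4.96 ± 0.697 and 4.29 ± 0.907 CPM (−0.20, FDR 0.257). The 5 like-genes had a median of −0.147 with 0 called (limma; 2 had an unadjusted p under 0.05). Rack1 was not analysed here. The 55 rows named -ps leaned less, with 34 below 0 (61.8%), a median of −0.0329 and a change of −4.19% in mean summed CPM. Of these rows 1 was called lower (Rps23-ps1) and 1 higher, beside 1.01% and 1.52% of all genes. The higher one was Rps18-ps3, a low row at 1.03 CPM (log2 fold change 0.806, FDR 0.0395).

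The other genes of ribosome supply did not share one direction. Of 16 further mRNAs with a terminal pyrimidine tract, 10 were below 0, with a median of −0.0174, and 1 was called, the elongation factor subunit Eef1g (70.2 ± 3.76 against 62.7 ± 4.14 CPM, FDR 0.0323). Of 38 ribosome assembly genes, 14 were below 0, with Nop10, a small protein of the box H/ACA particles, called lower (log2 fold change −0.23, FDR 0.0204) and Polr1a, the largest subunit of RNA polymerase I, called higher (0.15, FDR 0.0432). After the correction for length and GC content Polr1a was no longer called (0.07, FDR 0.388), while Nop10 still was (−0.19, FDR 0.0322). Among 18 genes that control ribosomal protein synthesis, 2 were called, both higher in *Winnie*. Mtor went from 122 ± 4.55 to 136 ± 6.93 CPM (0.16, FDR 0.0157), and Tsc2, its inhibitor, from 133 ± 3.52 to 144 ± 3.86 CPM (0.11, FDR 0.0360). After the correction for length and GC content, 0 of these 18 genes were called (limma; 4 had an unadjusted p under 0.05). The 9 chaperones and importins of ribosomal proteins and the 10 genes of the Mdm2 and p53 response had 0 calls (limma; 0 and 3 had an unadjusted p under 0.05).

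Nuclear genes of the mitochondria, another set of mostly short mRNAs, were measured for comparison. The 87 nuclear genes of oxidative phosphorylation had a median log2 fold change of −0.126, with 82 below 0 and 7 called lower (−0.0705 with 73 below 0 and 4 called after the correction for length and GC content). The 80 rows named for the mitochondrial ribosome had a median of −0.0774, with 71 below 0 and 1 called lower (−0.0538 with 60 below 0 and 1 called after the correction). Rows named -ps, such as Mrps36-ps2, were not left out of these 80 as they were of the members. The mean summed CPM of the oxidative phosphorylation and mitochondrial ribosome rows changed by −5.94% and −5.13% from C57BL/6 to *Winnie*, beside −6.47% for the members. An unadjusted p under 0.05 with a lower level (limma) was found for 52.9% of the oxidative phosphorylation rows and 32.5% of the mitochondrial ribosome rows. It was found for 29.1% of the members and 8.08% of all genes. Called lower were 8.05% and 1.25% of the rows of these groups, beside 1.27% of the members and 1.01% of all genes. Both groups thus lay on the same side of 0 as the members, and no test was made between the groups.

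Neuronal, glial and other cell type markers were measured beside the members. The summed level of 6 neuronal markers ranged from 5591 to 6518 CPM in C57BL/6 and from 5714 to 6324 CPM in *Winnie*, and that of 5 oligodendrocyte markers from 5412 to 6915 and from 5390 to 6524 CPM, with 0 called in both lists (limma; 0 and 1 had an unadjusted p under 0.05). The astrocyte markers summed to 1028 to 1184 and 1009 to 1167 CPM, and the microglial markers to 174 to 202 and 155 to 217 CPM. Of the markers of endothelium, Cldn5 was called lower in *Winnie* (log2 fold change −0.47, FDR 0.00331), while the list summed to 109 to 166 and 124 to 154 CPM, and no other marker of these lists was called. The other 3 endothelial markers had values above 0, with 0.34 for Slco1a4 (FDR 0.0503, and 0.0284 after the correction for length and GC content) and 0.09 for both Pecam1 and Flt1. Choroid plexus markers summed to 736 to 1057 and 504 to 1025 CPM, meningeal fibroblast markers to 129 to 184 and 136 to 196 CPM, cerebellar granule cell markers to 79.5 to 143 and 92.7 to 141 CPM, and blood markers to 93.6 to 208 and 40.6 to 150 CPM. An unadjusted p under 0.05 in limma was seen for 1 astrocyte, 2 microglial, 2 endothelial, 0 choroid plexus, 1 meningeal fibroblast, 0 granule cell and 1 blood marker. All 5 blood markers (median log2 fold change −0.282) and all 5 oligodendrocyte markers (−0.0487) were below 0. Below 0 were also 3 of 6 neuronal, 3 of 5 astrocyte, 4 of 5 microglial and 4 of 5 choroid plexus markers. Of the meningeal fibroblast markers 1 of 5 was below 0, and of the granule cell markers 3 of 5. The granule cell values ran from −0.749 (Gabra6) to 0.145 (Zic1). The part of these lists in the values of the members was not tested.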

How the data were processed

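Brain RNA was sequenced by the authors as paired reads of 100 bases from polyA libraries, run through RNAsik 1.5.4 with GRCm38 as the build, and assigned to genes by featureCounts. What the authors deposited is CPM, in which the read counts of each sample are scaled to the same total. The aligner, the strandedness of the counting and the treatment of reads that match several places are not given in the sources used here. All deposited values were whole multiples of 1 read (tolerance 0.0006 CPM), and 1 read was worth 0.0418 to 0.0605 CPM.

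The members and the gene lists were chosen with earlier results of these data known. All 17211 genes were compared with limma 3.58.1 (R 4.3.3) on log2(CPM + 0.5), with a variance trend and robust estimates. FDR is the Benjamini-Hochberg adjusted p over all genes, and a gene was called at an FDR under 0.05. A minimum mean CPM of 0.1 removed no gene, so all 79 members passed. Fold changes on this scale understate changes of low genes. Each member was compared by permutation as well, two-sided (100000 resamples, scipy 1.17.1), and these p-values were not adjusted. The p-values measure the spread between the 20 samples.

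Coordinates, transcript lengths and shared windows (exact matches of 100 bases on either strand in transcripts of other genes, with 1 principal transcript per member) come from GENCODE M21 (GRCm38), which matched 17128 genes and all 79 members. Reads shared with copies, overlapping genes (46 members have one) or antisense genes may be split by the counting, so such rows are uncertain. Genes named are those called, the 8 largest changes in each direction with an unadjusted p under 0.05, the 3 highest and lowest per kb in each subunit, members with known further roles, and those most and least like the others. Some genes that the rule would name are not reported here. Alternatives included other pseudocounts, filters and scalings, edgeR 4.0.16, DESeq2 1.42.0, voom, covariates, subsets by labelled sex and each brain left out. The tests were checked on simulated data. Replicate numbers did not pair the samples.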

Additional observations from a re-analysis of the deposited data

Results flagged for a closer look

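Within 72 groups of 10 brains, 6 held a highest or lowest value set apart from the rest by a gap above the 95% critical value of Dixon's test, and chance alone gives about 1 in 20 groups. *Winnie* replicate 6 had the highest Rpl39 of its group, at 15.2 CPM beside 6.80 to 10.99 CPM in the others, and also the highest Rps21, at 35.02 CPM beside 24.5 to 29.8 CPM. Without this brain, Rpl39 had a log2 fold change of −0.44 and the number of members called was 2. Rpl17, a row with 21 to 49 reads per brain, had a high value in C57BL/6 replicate 2 (2.50 CPM, others 1.08 to 1.67) and in *Winnie* replicate 1 (2.19 CPM, others 1.30 to 1.68). Rps3 was highest in *Winnie* replicate 4, at 170 CPM beside 134 to 153 CPM, the brain with the lowest share of mitochondrially encoded reads (5.96%). The large to small subunit ratio was lowest in C57BL/6 replicate 7, at 0.959 beside 1.01 to 1.07. The causes of these values were not tested.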

How the results depend on the processing

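The lower level of the members kept its direction under every alternative run: the median log2 fold change of either subunit stayed below 0, and without 1 brain it ranged from −0.130 to −0.0900 for the large and from −0.150 to −0.0938 for the small subunit. The number of members called, 1, was 2 under median-ratio, TMM and quantile scaling, voom and labelled sex as a covariate. It was 3 with edgeR and with Ddx3y as a covariate, where 1.29% and 1.12% of all genes were called lower. It was 10 with DESeq2 (3.42% of 13874 genes called lower) and 0 at an FDR under 0.001 with a 1.5-fold change (limma). Without 1 brain it ranged from 0 to 5, with 5 without C57BL/6 replicate 6 and 4 without C57BL/6 replicate 7. Where no share of all genes stands beside a count, it is not read as a result about the members. Over all genes, 434 calls became 977 with DESeq2, 0 at an FDR under 0.001 with a 1.5-fold change and 169 to 694 without 1 brain. With the replicate number as a block, 227 genes were called and Rpl39 alone among the members (FDR 0.0485). Same-numbered samples correlated at −0.293 to 0.151 in their deviations, 2 of 10 over 0.1, so the numbers give no pairing.

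The samples labelled Female gave 6 calls over all genes, 2 of them members, a small subunit median of −0.211, a subunit ratio difference of 0.0174, and opposite signs for Rpl17 (−0.0225), Rpl4 (−0.0143) and Rps23 (−0.0539). Those labelled Male gave 61 calls, 0 of them members (limma), a small subunit median of −0.0196, and opposite signs for Rpl37 (0.194), Rps27rt (0.157), Rpl10 (0.0603), Rpl29 (0.0501), Rps27 (0.0315), Rps19 (0.0312), Rps13 (0.0307) and Rpl5 (0.0178). These subsets hold fewer samples. The correction for length and GC content turned 7 members above 0, Rpl14 (0.0341), Rps27 (0.0326), Rpl27 (0.0316), Rpl29 (0.0310), Rpl28 (0.0249), Rps27rt (0.0214) and Rps13 (0.0195). Summing -ps rows turned 4 members, Rps23 (−0.235), Rpl23a (−0.134), Rpl38 (−0.0326) and Rps10 (0.00533), and left 68 below 0. The difference in subunit ratio was 0.00120 over ribosomal proteins proper and −0.0146 to 8.69e-05 without 1 brain. Without 1 brain, Rpl4 ranged from −0.0101 to 0.0264, Rps27rt from −0.140 to 0.0103 and Rps27 from −0.0951 to 0.0169. Other causes were not tested. Members of few reads, such as Rpl24 with 5 reads in its lowest brain, are limited by counting error.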
